A study of Mus musculus with 8 samples.

Results

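The 10 genes described here encode parts of the junctions that join epithelial cells: Cdh1 and Epcam (cell adhesion at the lateral membrane), Cldn3, Cldn4, Cldn7, Ocln, Tjp1 and F11r (tight junctions), and Dsp and Pkp1 (desmosomes). The rule lists them by name and uses no measured value, though it was written with earlier results of these data known, and all 10 were found among the 20189 genes of the deposited table. Messenger RNA had been sequenced from cultures of 4T1, an established mouse mammary carcinoma line of labelled genotype WT, that had grown for 48 hours in medium with 5 mM acetate or with the vehicle, water. There were 4 acetate and 4 vehicle libraries, numbered 1 to 4 in each group. The study describes the numbers as independent experiments. All libraries came from the same line and were harvested with trypsin, so the comparison concerns cultured tumour cells of a single origin.

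Adherens junctions hold neighbouring epithelial cells together through cadherins, whose cytoplasmic tails bind catenins and through them the actin cytoskeleton. Tight junctions lie closer to the cell apex and seal the space between cells with strands of claudins and occludin that are anchored by scaffold proteins, while desmosomes tie the membrane to keratin filaments. Carcinoma cells that pass through an epithelial-to-mesenchymal transition (EMT) classically lose cadherin 1 and these junctions. The study sequenced acetate-treated cells to ask how the supply of acetyl-CoA bears on metastasis, and followed EMT genes in them.

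Values are normalised read counts, scaled by the authors so that each library sums to 20000000. The libraries held between 19.9 and 29.3 M reads (M, mega), and the 10 genes rested on 183 (Pkp1) to 13941 (Epcam) reads per library. Differences are on the scale of log2(value + 1), acetate minus vehicle, and were tested with limma over all genes with the replicate number as a block, since same-numbered libraries share an experiment. Of 10 epithelial marker genes listed, 9 were measured, all but Krt5. The summed level of the 9 was 51790 to 65780 normalised reads in vehicle and 55910 to 65550 in acetate. The vehicle libraries had 17471 ± 1623 normalised reads of Krt8 (keratin 8 of simple epithelia, named after its values were seen) and the acetate libraries 16781 ± 1365 (SD, n = 4). Krt8 was lower in acetate in 4 of 4 pairs, with a log2 change of -0.06 that did not pass (adjusted p 0.214, limma). Of the 9 epithelial markers, Krt19, Krt14 and Elf3 rose, with log2 changes of 0.40, 0.36 and 0.27, and 0 fell. Over all genes, 5.99% rose and 2.65% fell. Among the 9 markers the fitted change was above 0 for 5 and below 0 for 4, with a median of 0.0031. The leukocyte marker Ptprc had at most 3.02 normalised reads in vehicle and 2.88 in acetate. The 3 endothelial markers measured, Pecam1, Tie1 and Tek, summed to at most 13.7 in vehicle and 15.7 in acetate. The 3 fibroblast markers measured summed to 229 to 1523 in vehicle and 394 to 1998 in acetate. Nearly all of this was Pdgfra, a growth factor receptor, which rose with acetate by 0.52 (adjusted p 3.72e-04, limma). Of the other fibroblast markers, Pdgfrb, named after its values were seen, also rose, by 1.40 on the log2 scale (adjusted p 0.0119, limma), from 0 to 21.2 normalised reads in the vehicle libraries to 3.14 to 33.1 in acetate. Dcn changed by 0.72 and did not pass (adjusted p 0.314), so 2 of the 3 were called and the median of the list was 0.72. The part of these markers in the results below was not tested.

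Of the 10 junction genes, Cdh1, Cldn4, F11r and Dsp rose with acetate, the other 6 did not pass the test, and 0 fell. The 4 rises were small: 11.3% for Cdh1, 23.5% for Cldn4, 7.51% for F11r and 8.78% for Dsp. Over all genes, 8.64% were called in either direction, 5.99% higher and 2.65% lower. Among genes with a mean of at least 50 normalised reads, where all 10 lie, 14.7% were called and 9.96% were called higher. Of the calls over all genes, 69.3% were higher in acetate, and 54.9% with median-of-ratios scaling, 53.4% in edgeR and 58.0% in DESeq2. On reads recovered from the values and with the same block, edgeR called 3 of the 10 genes (17.9% of the genes it tested) and DESeq2 2 (9.11%), all of them higher. The median log2 change of the 10 genes was 0.11, against 0.02 over all genes tested. By pair, their median was 0.15, 0.12, 0.11 and 0.08 in pairs 1 to 4. In 7 of the 10 the acetate library was the higher in 4 of 4 pairs, a pattern shown by 16.7% of all genes and by 22.2% of genes with a mean of at least 50. In bulk RNA, more transcript per cell and more cells carrying it cannot be told apart.

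**Figure D1:**
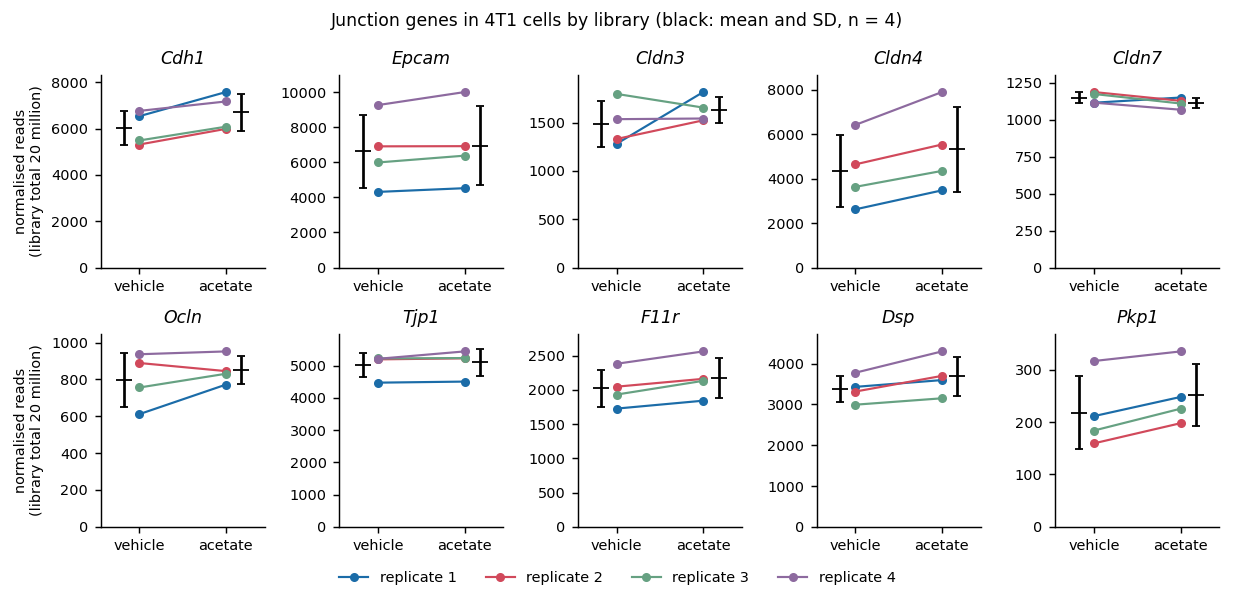
Normalised reads of the 10 junction genes in each of the 8 libraries, vehicle on the left and acetate on the right of each panel, with a line joining the libraries of the same replicate number and black bars for mean and SD (n = 4). Lines slope upward in 4 of 4 pairs for Cdh1, Epcam, Cldn4, Tjp1, F11r, Dsp and Pkp1, while the ranges of the groups overlap in every panel.

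These calls rested on the pairing. Without the replicate block, limma called 0 of the 10 genes and 0% of all genes, and 0 of the 10 and 353 genes overall had an unadjusted p under 0.05. In none of the 10 genes did the 4 acetate libraries lie apart from the 4 vehicle libraries, which 1.65% of all genes did. The treatment difference was thus smaller than the spread between experiments, and only a comparison within experiments called it. For Epcam, replicate number took up 99.0% of the variance of the log2 values over the 8 libraries and treatment 0.712%. For Tjp1 the shares were 97.5% and 1.12%, and for F11r, Cldn4 and Pkp1 replicate number held 90.7%, 89.6% and 87.4%. Treatment had its largest shares in Cldn7 (22.3%) and Cdh1 (21.0%). In Cldn3 and Cldn7 the share left to neither source was 47.4% and 31.2%. The pairs of Cldn3 ran from -0.12 to 0.50. Cldn7 varied little in total, by 1.065 times between its lowest and highest vehicle library, and was lower in acetate in 3 of 4 pairs. Both libraries of replicate 1 were the lowest of their groups for Epcam, Cldn4, Ocln, Tjp1 and F11r. Both libraries of replicate 4 were the highest for 6 genes, Epcam, Cldn4, Ocln, F11r, Dsp and Pkp1. The experiments thus differed in junction transcripts also without acetate, by 2.45 times between the lowest and the highest vehicle library for Cldn4 and by 2.15 times for Epcam.

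**Figure D2:**
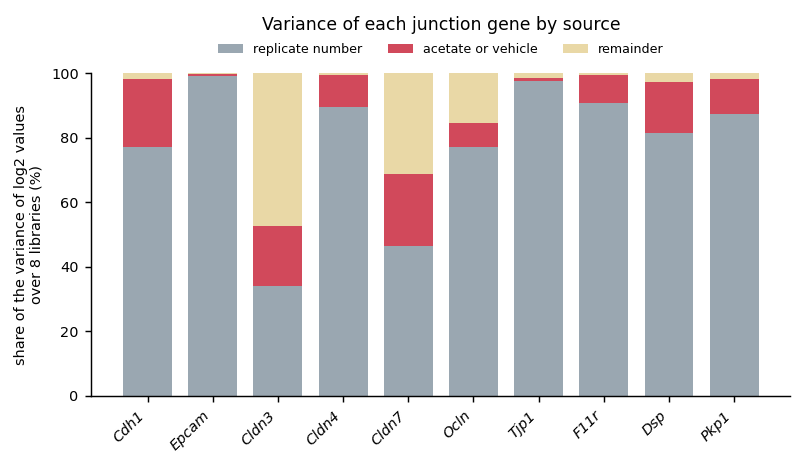
Share of the variance of log2 values over the 8 libraries (vertical axis, percent) that falls to the replicate number, to treatment and to the remainder, for each of the 10 genes. Replicate number fills 99.0% of the Epcam bar, and the remainder is largest for Cldn3 at 47.4%.

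Cdh1 encodes E-cadherin, the calcium-dependent adhesion receptor of epithelial adherens junctions (ENSMUSG00000000303, GRCm38, chromosome 8, 106603351 to 106670246, plus strand, protein-coding). E-cadherin transcripts numbered 6534, 5310, 5485 and 6760 normalised reads in vehicle replicates 1 to 4, and the acetate libraries had 7573, 5984, 6078 and 7167. Replicates 1 and 4 were high and replicates 2 and 3 low in both groups, and each acetate library exceeded its own vehicle partner. The log2 changes of the 4 pairs were 0.21, 0.17, 0.15 and 0.08. Cdh1 rose by 0.15 on the log2 scale (SE 0.028, 95% interval 0.09 to 0.22, adjusted p 0.00592, limma with block). The call was lost without replicate 2 (adjusted p 0.0580) and without replicate 3 (0.0689), while the change stayed between 0.13 and 0.18 in the fits without a pair. The genes most like Cdh1 across the 8 libraries, by Pearson r on log2 values among 10280 genes with a mean of at least 100, were Phlda1 (0.97), Ssr3 (0.96) and Thbs1 (0.96). The 8 libraries come from 4 experiments, so r reads the differences between experiments as well as treatment.

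Epcam encodes an epithelial adhesion glycoprotein that binds its like on neighbouring cells and also associates with claudin 7 (ENSMUSG00000045394, chromosome 17, 87635979 to 87651129, plus strand). Its normalised reads in replicates 1 to 4 were 4319, 6920, 6000 and 9279 in vehicle and 4531, 6931, 6388 and 10020 in acetate. Within each pair the acetate library was only slightly above its partner, by 0.07, 0.0022, 0.09 and 0.11 on the log2 scale. Its change of 0.07 (95% interval 0.0095 to 0.13, limma) did not pass after adjustment (adjusted p 0.154).

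Claudins are 4-pass membrane proteins whose strands set the permeability of the tight junction. Cldn4 showed the largest change of the 10 genes and was the clearest of the calls (ENSMUSG00000047501, chromosome 5, 134945119 to 134946934, minus strand). It had 2617, 4640, 3628 and 6416 normalised reads in vehicle replicates 1 to 4 and 3469, 5530, 4344 and 7890 in acetate. The order of the experiments was the same in both groups, with replicate 1 lowest and replicate 4 highest. Its pairs changed by 0.41, 0.25, 0.26 and 0.30, and the fitted change was 0.30 (SE 0.031, 95% interval 0.24 to 0.37, adjusted p 3.19e-04, limma). Cldn4 passed in each of the 4 fits that left out a pair, with adjusted p from 3.50e-04 to 0.0178.

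Cldn3 lies beside Cldn4 on the opposite strand, 39280 bases between their starts (ENSMUSG00000070473, chromosome 5, 134986214 to 134987472). Its normalised reads were 1283, 1331, 1797 and 1536 in vehicle and 1817, 1524, 1656 and 1543 in acetate. Here pair 1 was far higher in acetate and pair 3 lower, with log2 changes of 0.50, 0.19, -0.12 and 0.0065. The fitted change was 0.15 with an interval of -0.02 to 0.31 (adjusted p 0.289, limma), with 0.03 in the fit without replicate 1 and 0.23 in that without replicate 3. The antisense gene Wbscr25, which overlaps Cldn3, had a mean of 2.79 normalised reads.

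Cldn7 was the single gene of the 10 with a lower mean in acetate (ENSMUSG00000018569, chromosome 11, 69964779 to 69967885, plus strand). It had 1116, 1188, 1175 and 1117 normalised reads in vehicle and 1151, 1129, 1111 and 1069 in acetate. The values lay close together in all 8 libraries, and acetate was lower in 3 of 4 pairs. Its change of -0.04 (95% interval -0.12 to 0.04, adjusted p 0.538, limma) did not pass, and an upward change of the size of Cldn4 lies outside that interval.

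The promoters of these 3 claudins are shown because the genes belong to one family and, of the 3, only Cldn4 was called. The interval of Cldn3, -0.02 to 0.31, includes the fitted change of Cldn4, 0.30. RefSeq windows (GRCm38.p6) were at hand for 8 of the 10 genes, and the 250 bases before the start are printed 5′ to 3′ in the direction of the gene. For Tjp1 and F11r the RefSeq start differs from the gene start given here. Capitals mark letters that match 1 of 4 motifs on either strand. GGGCGG is the GC box that binds Sp1. CAGGTG is an E-box to which the EMT repressors Snail and Zeb bind. CCAAT is the box of that name, and TATAAA is the TATA box.
Cldn3, chr5:134985964-134986213, plus strand: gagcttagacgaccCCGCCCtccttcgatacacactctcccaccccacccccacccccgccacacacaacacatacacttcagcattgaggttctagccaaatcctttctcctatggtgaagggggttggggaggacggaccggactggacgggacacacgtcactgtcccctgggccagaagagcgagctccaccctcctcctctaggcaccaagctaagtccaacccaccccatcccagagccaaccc
Cldn4, chr5:134946935-134947184, minus strand: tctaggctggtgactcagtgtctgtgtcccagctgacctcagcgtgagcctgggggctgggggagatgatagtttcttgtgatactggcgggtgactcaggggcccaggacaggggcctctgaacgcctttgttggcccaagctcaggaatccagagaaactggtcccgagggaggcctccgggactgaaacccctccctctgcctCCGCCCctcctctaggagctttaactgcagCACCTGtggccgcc
Cldn7, chr11:69964529-69964778, plus strand: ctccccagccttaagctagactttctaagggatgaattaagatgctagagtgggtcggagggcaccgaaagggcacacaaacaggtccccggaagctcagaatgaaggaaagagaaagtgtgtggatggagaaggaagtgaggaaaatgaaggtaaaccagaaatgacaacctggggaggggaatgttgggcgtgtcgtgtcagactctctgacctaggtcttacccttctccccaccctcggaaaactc
The Cldn4 window held 1 GC box and, 14 bases before the start, 1 E-box. The Cldn3 window held 1 GC box and the Cldn7 window none of these motifs. Over the 8 genes with a window, 7 held a GC box, 3 (Epcam, Cldn4 and F11r) the E-box, 1 (F11r) a CCAAT box and 0 the TATA box. The shares of all 32851 RefSeq windows of this length with these motifs were 32.7%, 17.2%, 33.8% and 12.4%. These are matches of letters only, and no binding was measured here.

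Among the claudin transcripts, Cldn4 made up the largest part in every library. Per kilobase of exon, Cldn4 held 40.7%, 54.6%, 44.4% and 61.3% of the summed level of the 12 claudins measured in vehicle replicates 1 to 4. In acetate it held 43.1%, 57.5%, 50.5% and 66.1%, more than its vehicle partner in each pair. The Cldn7 share was 9.94% to 16.2% in vehicle and 8.35% to 13.3% in acetate. In reads, Cldn4 stood to Cldn7 as 2.35, 3.90, 3.09 and 5.75 in vehicle and as 3.01, 4.90, 3.91 and 7.38 in acetate. On the log2 scale this ratio was higher in acetate by 0.36, 0.33, 0.34 and 0.36 in the 4 pairs (mean 0.35 ± 0.02, SD, n = 4, exact two-sided sign-flip test p = 0.125). With 4 pairs that test cannot go below 0.125, and over the 7 ratios computed, picked after the values were seen, the adjusted p was 0.175. The ratio of Cldn4 to Cldn3 changed by -0.10, 0.06, 0.38 and 0.29, with 3 of 4 pairs higher in acetate (exact p = 0.375, adjusted p 0.438).

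**Figure D3:**
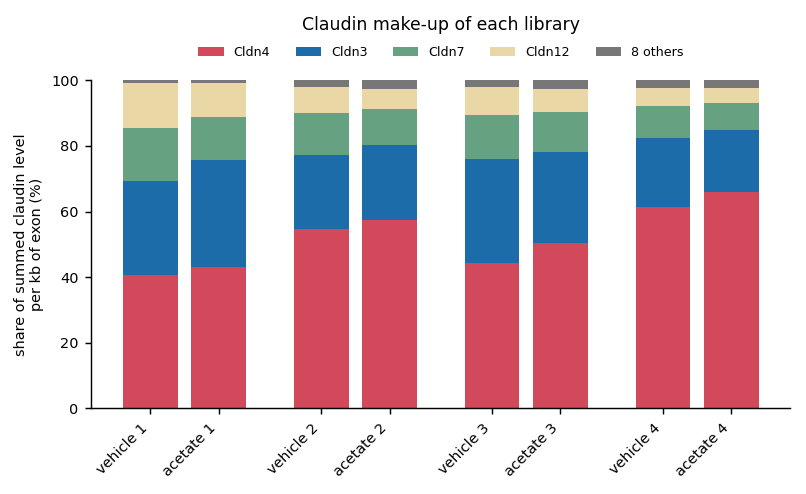
Share of each claudin in the summed claudin level per kilobase of exon (vertical axis, percent) in the 8 libraries, with vehicle and acetate of the same replicate side by side. The Cldn4 part is larger in acetate in 4 of 4 pairs and spans 40.7% to 66.1%.

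The other 3 tight junction genes had smaller fitted changes than Cldn4. F11r, which encodes the junctional adhesion molecule JAM-A (ENSMUSG00000038235, chromosome 1, 171437535 to 171464603, plus strand), had 1726, 2046, 1931 and 2380 normalised reads in vehicle and 1841, 2160, 2131 and 2560 in acetate. All pairs were higher in acetate, by 0.09, 0.08, 0.14 and 0.11. The fitted change of 0.10 (95% interval 0.04 to 0.17) passed narrowly (adjusted p 0.0472, limma), and leaving out any pair lost the call (adjusted p from 0.0695 to 0.205).

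Ocln, the gene of occludin (ENSMUSG00000021638, chromosome 13, 100496507 to 100552718, minus strand), had 612, 889, 756 and 936 normalised reads in vehicle and 771, 845, 830 and 952 in acetate. Pair 1 differed most, at 0.33, while pair 2 was lower in acetate, at -0.07. The change of 0.11 had an interval of -0.02 to 0.23 (adjusted p 0.320, limma) and was 0.03 without replicate 1. Tjp1, the scaffold ZO-1 that links strand proteins to actin (ENSMUSG00000030516, chromosome 7, 65296165 to 65527781, minus strand), had 4469, 5191, 5219 and 5209 normalised reads in vehicle and 4502, 5223, 5232 and 5437 in acetate. Replicate 1 stood below the other experiments in both groups, and the pairs differed by 0.01, 0.0090, 0.0035 and 0.06. Its change of 0.02 (95% interval -0.03 to 0.08, adjusted p 0.694, limma) did not pass.

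In the desmosome, Dsp encodes desmoplakin, which anchors keratin filaments to the plaque (ENSMUSG00000054889, chromosome 13, 38151294 to 38198577, plus strand). Dsp had 3432, 3317, 2995 and 3779 normalised reads in vehicle and 3598, 3700, 3151 and 4300 in acetate. All pairs were higher in acetate, pairs 2 and 4 more (0.16 and 0.19) than pairs 1 and 3 (0.07 and 0.07). The change of 0.12 (SE 0.030, 95% interval 0.06 to 0.19, adjusted p 0.0280, limma) was no longer called without replicate 2, 3 or 4 (adjusted p 0.166, 0.0985 and 0.147).

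Pkp1, the gene of the desmosomal armadillo protein plakophilin 1 (ENSMUSG00000026413, chromosome 1, 135871395 to 135919207, minus strand), was the lowest of the 10. It had 211, 160, 184 and 317 normalised reads in vehicle and 248, 198, 226 and 335 in acetate. All pairs were higher in acetate, by 0.23, 0.31, 0.29 and 0.08. Its change of 0.23 (95% interval 0.08 to 0.37) was the second in size and missed the threshold (adjusted p 0.0555, limma). With genes under a mean of 10 left out of the test it passed (adjusted p 0.0370, limma), but in no other alternative. Its adjusted p was 0.0685 in edgeR, 0.300 in DESeq2 and 0.136 with quantile scaling. Leaving out a pair gave 0.0960 to 0.215 in limma.

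**Figure D4:**
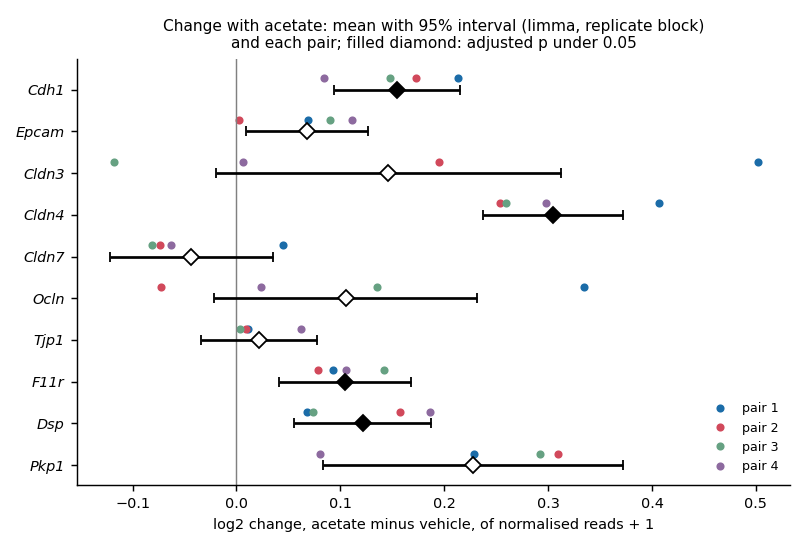
Log2 change of normalised reads + 1, acetate minus vehicle, for the 10 junction genes (horizontal axis), with diamonds for the limma estimate and bars for its 95% interval, filled where the adjusted p was under 0.05, and coloured points for the 4 pairs. Cldn4 lies farthest to the right at 0.30, Cldn7 is the only estimate left of 0 at -0.04, and the pairs of Cldn3 spread from -0.12 to 0.50.

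Levels can be compared between the genes only per length. Per kilobase of exon, the vehicle means were 3020 ± 942 normalised reads for Epcam, 2382 ± 892 for Cldn4, 1317 ± 160 for Cdh1, 1181 ± 186 for Cldn3 and 759 ± 103 for F11r (SD, n = 4). Below them came Tjp1 at 643 ± 47.2, Cldn7 at 590 ± 19.6, Dsp at 350 ± 33.5, Ocln at 189 ± 34.6 and Pkp1 at 43.4 ± 13.8. The ranges of Epcam and Cldn4 overlapped, as did those of Cldn4 and Cdh1, of Cdh1 and Cldn3, of F11r and Tjp1, and of Tjp1 and Cldn7. Cldn3 lay above F11r, Cldn7 above Dsp, Dsp above Ocln and Ocln above Pkp1 with no overlap. The order was the same in acetate, where Epcam had 3174 ± 1039 and Pkp1 50.1 ± 11.8 normalised reads per kilobase.

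The other genes of these junctions were read from lists of 63 genes, of which the table held 52. Of these 52, 14 rose, 2 fell and 36 did not pass the test, where 5.99% of all genes rose and 2.65% fell, and 14.7% of genes with a mean of at least 50 were called. Their median log2 change was 0.07. By list the median was 0.09 for adherens junctions, 0.08 for tight junctions and -0.0071 for desmosomes. Of 15 other adherens junction genes, 5 rose and 0 fell. Cdh3, the gene of P-cadherin, starts 92460 bases before Cdh1 on the same strand and rose most. It had 18.3, 43.9, 46.2 and 56.6 normalised reads in vehicle and 36.1, 84.0, 89.7 and 89.1 in acetate. Every acetate library was well above its partner, at a level far below that of Cdh1, and the log2 change was 0.86 (95% interval 0.57 to 1.15, adjusted p 0.00260, limma). The ratio of Cdh1 to Cdh3 was lower in acetate in 4 of 4 pairs, with a mean log2 difference of -0.73, and lay between 119 and 357 in vehicle and between 67.8 and 210 in acetate (exact sign-flip p = 0.125, the smallest possible). Nectin4 and Nectin2, immunoglobulin-like adhesion receptors, rose by 0.56 and 0.35 (adjusted p 0.0291 and 0.00497, limma). Among the direct partners of E-cadherin, Ctnnb1 (beta-catenin) rose from 20355 ± 3728 to 22412 ± 4576 normalised reads, a log2 change of 0.13 (adjusted p 0.00664). Ctnna1 (alpha-catenin) and Ctnnd1 (p120-catenin) changed by 0.07 and 0.07 and did not pass (adjusted p 0.120 and 0.338). The ratio of Cdh1 to Ctnnb1 changed by 0.13, 0.04, -0.0060 and -0.08 in the 4 pairs. Lima1, which links the cadherin complex to actin and is named here after its value was seen, rose by 0.30 (adjusted p 5.66e-04).

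Of 26 other tight junction genes, 7 rose and 1 fell, where 5.99% of all genes rose and 2.65% fell. Among genes with a mean of at least 50, 14.7% were called. Cldn9 went from 38.6 ± 24.3 normalised reads to 64.9 ± 37.5, a log2 change of 0.68 (95% interval 0.29 to 1.07, adjusted p 0.0372, limma). Tjp3, the scaffold ZO-3, had 61.1, 299, 297 and 542 normalised reads in vehicle and 134, 405, 377 and 645 in acetate. Both libraries of replicate 1 were far below the others, and pair 1 changed most, by 1.12 against 0.43, 0.35 and 0.25 in pairs 2 to 4. The fitted change was 0.54 (adjusted p 0.0150, limma). Magi3, another scaffold, rose by 0.22 (adjusted p 0.0127). Cldn12 fell by 0.12 on the log2 scale, from 1634 ± 301 to 1501 ± 292 normalised reads, and was lower in 4 of 4 pairs (adjusted p 0.0296). Cxadr, Cgn, Cldn1 and Cldn2, named after their values were seen, rose by 0.19, 0.11, 1.48 and 0.81. Their adjusted p was 0.00201, 0.0441, 0.0111 and 0.0302 (limma). Cldn2 had as few as 3 reads in a library, and its vehicle libraries ranged from 2.29 to 38.2 normalised reads. Cldn1 had 5.34, 4.88, 2.01 and 8.19 normalised reads in the vehicle libraries, and the acetate libraries had 22.0, 15.3, 10.4 and 13.7. Its groups did not overlap, at levels of as few as 2 reads in a library.

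Of 11 other desmosome genes, 2 rose and 1 fell, where 5.99% of all genes rose, 2.65% fell and 14.7% of genes with a mean of at least 50 were called. Jup encodes plakoglobin, the armadillo protein that adherens junctions and desmosomes share. It had 1903, 4099, 3725 and 5889 normalised reads in vehicle and 2177, 4921, 4582 and 6963 in acetate. The experiments differed far more than the treatments, each pair was higher in acetate, and the change was 0.25 (95% interval 0.19 to 0.31, adjusted p 4.77e-04, limma). Dsc2, a desmosomal cadherin, rose by 0.31 (adjusted p 0.00344), while its partner cadherin Dsg2 changed by 0.02 and did not pass (adjusted p 0.784). Pkp3, plakophilin 3, fell by 0.14 on the log2 scale, from 2253 ± 312 to 2034 ± 245 normalised reads, in 4 of 4 pairs (adjusted p 0.0110). The ratio of Pkp1 to Pkp3 was higher in acetate in 4 of 4 pairs, by 0.37 ± 0.09 on the log2 scale (SD, n = 4, exact sign-flip p = 0.125).

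Among contacts of other kinds, limma with the block called 0 of 7 gap junction genes, with 0 at an unadjusted p under 0.05. With 8.64% of all genes called, a count of 0 among so few is near the background. edgeR and DESeq2 on reads recovered from the values called 0 as well, with 1 and 0 at an unadjusted p under 0.05. Of Gja1, which encodes a widely expressed connexin, vehicle cells held 8734 ± 2054 normalised reads and acetate cells 8516 ± 2409. Of 8 other cadherins listed, 2 were measured, Cdh5 and Cdh15, and both lay at or under 4.85 normalised reads in every library, too few to measure a change. The other 6 were not analysed here.

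**Figure D5:**
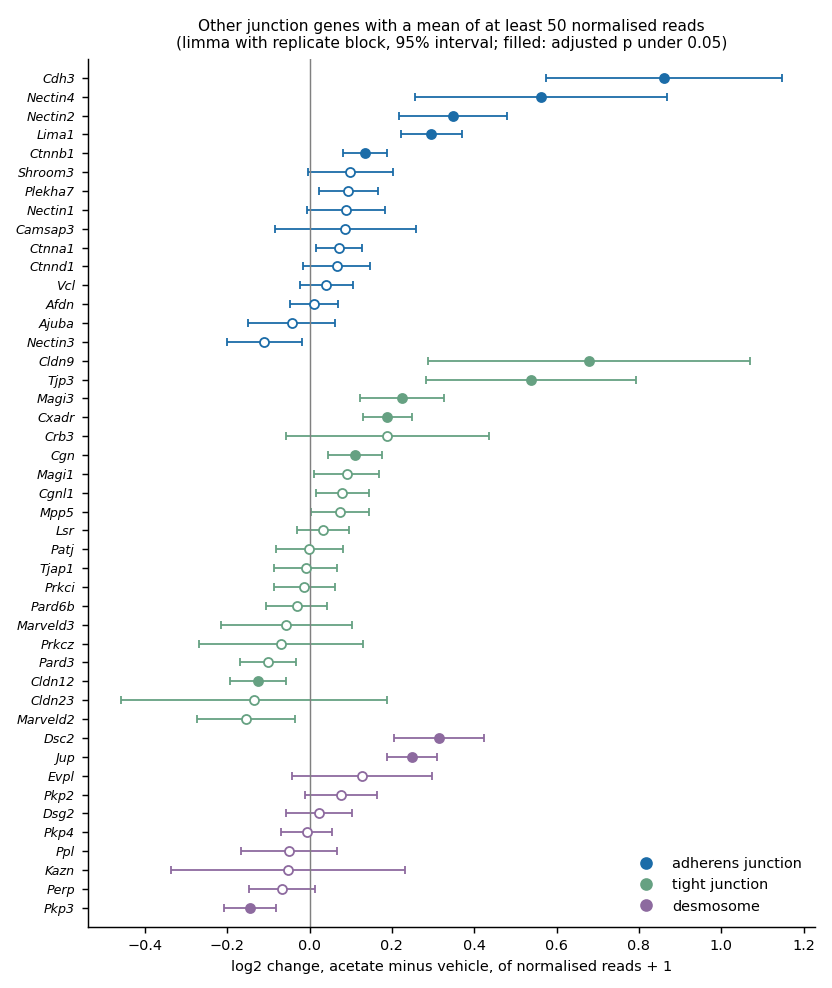
Log2 change, acetate minus vehicle, with 95% interval (horizontal axis) for 45 other junction genes with a mean of at least 50 normalised reads, grouped by colour into adherens junction, tight junction and desmosome and filled where the adjusted p was under 0.05. Cdh3 has the largest change at 0.86, and the filled points left of 0 are Cldn12 and Pkp3.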

How the data were processed

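Stranded poly-A libraries of 4T1 cells had been sequenced, and the authors aligned the reads with STAR to GRCm38 and counted them per gene. HTSeq is also named in the submitters' processing notes, and the versions and strand setting are not given in the sources used here. What the authors deposited is a signal scaled to the library total, 20000000 per library. Each gene in the table was above 0 in at least 4 libraries. The values were whole multiples of 1 read (100% in each library), which gave back the reads. The tolerance was 0.02 of a read, and wider in proportion to the count at the highest counts.

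Of 20189 identifiers, 20004 matched a symbol, and positions and exon lengths (union of exons) came from GENCODE M21 on the same build. limma 3.58.1 (R 4.3.3, eBayes with trend, two-sided) was fitted to log2(value + 1) over all genes with the replicate number as a block, Benjamini-Hochberg adjustment and a threshold of 0.05. The libraries were paired by number because the labels give same-numbered samples a shared code. The correlations of their deviations from the group means were 0.81, 0.27, 0.20 and 0.69. Those between libraries of different number were not computed, so these values do not test the pairing. The study's own ranking for enrichment was unpaired, and that fit is an alternative. The fit was tested on simulated data.

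The 10 genes and all lists were chosen with earlier results of these data known. Named were the 10 genes, their direct partners, and per list the 3 largest rises and falls past the threshold with a mean of at least 50 units, or the 2 highest genes where none passed. A gene picked by this rule in each of the tight and gap junction lists is not reported here, and counts over the lists include it. Alternatives were pseudocounts of 0.1 and 5, a filter at a mean of 10, median-of-ratios and quantile scaling, edgeR 4.0.16 and DESeq2 1.42.0 on recovered reads, and leaving out each pair.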

Additional observations from a re-analysis of the deposited data

Results flagged for a closer look

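Among 20 sets of 4 libraries, the 10 genes in each group, 1 held a library far from the others, and chance alone gives about 1 in 20. Tjp1 in vehicle replicate 1 had 4469 normalised reads against 5191 to 5219 in the other vehicle libraries, a gap of 0.962 of the group's range. Its acetate partner was also the lowest of its group, at 4502.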

How the results depend on the processing

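The calls depended most on the pairing. With no replicate block, limma called 0 of all genes, 0 of the 10 junction genes and 0 of the other adherens junction, tight junction and desmosome genes. Median-of-ratios scaling left 2 of the 10 (Cdh1 and Cldn4). DESeq2 with the replicate block called 1126 of all genes, 2 of the 10 (again Cdh1 and Cldn4) and 5 other tight junction genes. Leaving out a pair gave 409 to 1662 of all genes (617 without replicate 2, 409 without replicate 3 and 539 without replicate 4), 1 to 3 of the 10 (1 without replicate 2 or 3), 2 to 5 other adherens junction genes, 1 to 8 other tight junction genes and 1 to 3 other desmosome genes, fewer samples being part of each such fit. F11r lost its call in every alternative except a pseudocount of 5 and the filter on the mean. No change of the 10 genes turned direction under any of these alternatives, and Cldn4 passed in all of them except the fit without the block. The filter left no other cadherin to test, nor did edgeR. Pkp1 rested on 183 to 466 reads per library, where counting error limits what a small change can show.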
